A study of Eriobotrya japonica with 9 samples.

Results

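A group of 12 leaf genes of loquat (*Eriobotrya japonica*) is described here, out of 43996 genes in the expression table. In leaves of watered plants these genes were close to silent (below 1 TPM on average), in leaves of NaCl-treated plants they were expressed, and in leaves of plants given melatonin before the same NaCl treatment they stayed within 2-fold of the NaCl level. They were selected on exactly these measured levels. A gene was taken if it had no KEGG pathway map in the table, a mean below 1 TPM in the watered controls and a mean of at least 5 TPM under NaCl. Its lowest NaCl library also had to lie above its highest control library, and its mean after melatonin and NaCl had to be at least 0.5 and at most 2 times its NaCl mean. TPM is the level of the transcripts of a gene per unit of length, scaled so that each library adds up to 1000000. Because all 3 group means entered the choice, the levels of the 12 genes are given as a description and without a test.

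The plants were raised by tissue culture from loquat seeds, transplanted outdoors and treated as whole seedlings, and the libraries came from leaf RNA on day 10. The watered controls (CK) received neither NaCl nor melatonin. The second group (ST) was first watered and then given 200 mmol/L NaCl, and the third (MTST) was first irrigated at the roots with 150 µmol/L melatonin and then given 200 mmol/L NaCl. Each group had 3 libraries, which the study describes as biological replicates, and no group received melatonin alone, so an effect of melatonin without NaCl was not analysed here.

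High NaCl around the roots lowers the water potential of the soil and brings sodium and chloride into the leaves, where they disturb ion balance and photosynthesis. Plants answer with osmotic, ion transport, antioxidant and hormone programs, and many genes that are silent in unstressed leaves are switched on. Melatonin is an indoleamine that plants make themselves and that is widely studied as a pretreatment against salt, through its links with antioxidant enzymes, ion transporters and hormone signalling. A gene switched on by NaCl can therefore be followed in a second state, in which the same NaCl met a pretreated plant.

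Each library held 13048770 to 14468499 reads, so that the weakly expressed genes were seen through few reads. Replicate libraries correlated more closely with each other (Pearson r of 0.959 to 0.989 across genes) than libraries of different groups (0.880 to 0.947). Replicates still differed by more than the sampling noise of reads, by a chi-square averaged over genes of 3.11 to 27.2. The label as leaf was checked with 135 genes of photosynthesis by their GO terms, of which 109, 110 and 110 had a mean above 10 TPM in CK, ST and MTST. These genes held 8.67% to 9.73% of the TPM in CK, 4.94% to 5.20% in ST and 7.56% to 7.88% in MTST. The part of this shift in the levels of the 12 genes was not tested. In whole leaves a change in the share of a cell type and a change of RNA per cell cannot be told apart.

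Of the 36719 genes without a pathway map, 217 were switched on by NaCl in the sense of the rule. In MTST, 204 of these (94.0%) had a mean below 0.5 times their ST mean, 12 (5.53%) lay in the window and 1 lay above 2 times. The 12 genes were thus near the upper end of a series of MTST/ST ratios that ran on below the window, where the nearest gene stood at 0.471. The 217 genes had a median ratio of 0.136, a 90th percentile of 0.416 and a 95th percentile of 0.528. The ratios of the 12 genes ran from 0.500 to 0.786 with a median of 0.644, against a median of 0.130 in the 204 genes below the window. Over the 23641 genes tested, which had at least 1 TPM in at least 3 of the 9 libraries, the median ratio was 0.844, and 20361 of them (86.1%) lay between 0.5 and 2. The switched-on genes were chosen for a high ST mean, which is also the denominator of this ratio, so their lower ratios are not compared with those of all genes. Among the 50 switched-on genes that do have a pathway map, 47 fell below the window, 2 (4%) lay within it and 1 lay above it, at 2.32.

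**Figure D1:**
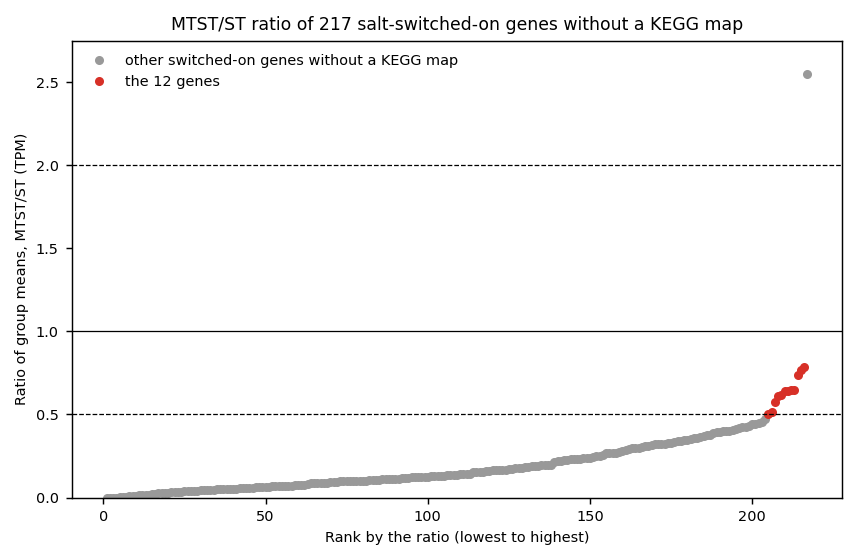
Ratio of the mean TPM in MTST to the mean TPM in ST (vertical axis) for the 217 switched-on genes without a pathway map, ranked from the lowest to the highest ratio (horizontal axis), with dashed lines at 0.5 and 2 and a solid line at 1. The 12 genes (red) continue the curve of the other genes (grey) from 0.500 to 0.786, and the gene above 2 stands alone at 2.55.

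The rule bounds the MTST/ST ratio, and it does not show that the 12 genes were kept at the NaCl level. In all 12 the MTST mean was below the ST mean, and none of them lay in the upper part of the window, between 1 and 2. The rule asked for a high ST mean, which is also the denominator of this ratio, so nothing is read from this direction. The share of the rise from CK to ST that was absent in MTST ran from 23.3% to 55.6%, with a median of 39.3%. Every MTST library was above every CK library in 12 of 12 genes (39.7% of the genes tested). The bounds on the means favour this, so nothing is read from it, but the rule sets no condition on single MTST libraries. The margin was narrow in *Ej00074482*, with 0.669 TPM (5 reads) in MTST replicate 2 against 0.551 TPM (4 reads) in CK replicate 1. The MTST mean was 4.22 to 95.6 times the CK mean (median 6.67). The ST mean was 6.35 to 154 times the CK mean (median 11.4). On the TPM scale all 3 MTST libraries were below all 3 ST libraries in 6 of the 12 genes, as in 40.9% of the genes tested. In the other 6 the libraries of both groups overlapped. The separation rested on the scaling in *Ej00003224* (11 reads in MTST replicate 2, 10 in ST replicate 2) and *Ej00096026* (14 reads in each of these libraries).

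The same values stood as follows in limma, fitted on log2(TPM + 1) over all 23641 genes with Benjamini-Hochberg adjustment at 0.05. ST was higher than CK in 12 of the 12 genes (52.8% of the genes tested were called higher). MTST was higher than CK in 12 (29.7% of the genes tested). MTST was lower than ST in 4 (29.8% of the genes tested were called lower), and the other 8 did not pass. With median-of-ratios scaling, which divides each library by the median ratio of its genes to their mean level, 1 of the 4 was called. Over all genes, 3203 of the 23575 then tested were called lower. Nothing is read from these counts, since the rule used the same contrasts, and all 12 genes passed the filter on low values through their levels under NaCl. The median log2 difference of the 12 genes was 2.33 from CK to ST and -0.58 from ST to MTST, next to medians of 0.41 and -0.22 over all genes tested.

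**Figure D2:**
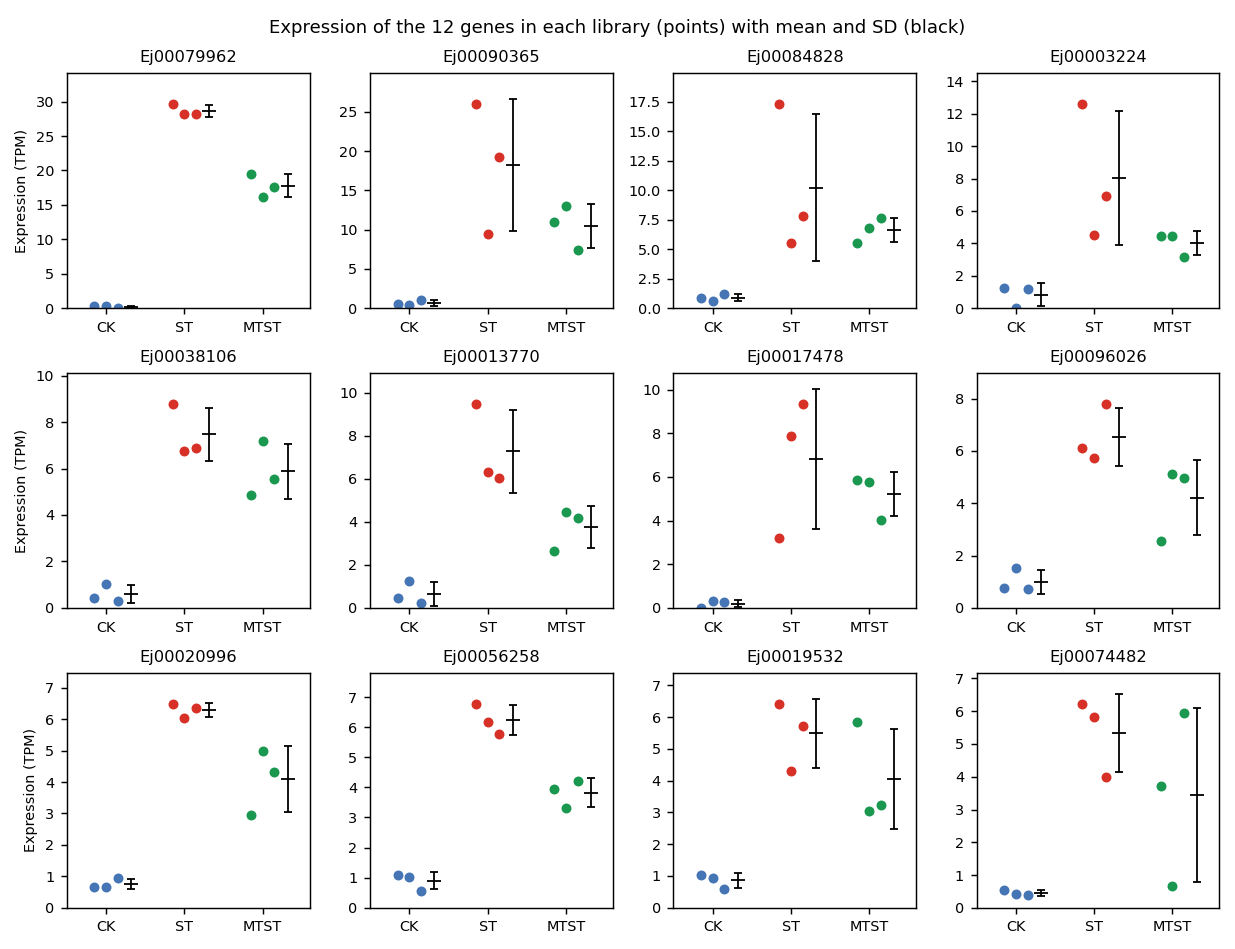
Expression in TPM (vertical axes, each from 0 and with its own range) of the 12 genes in the 3 CK (blue), 3 ST (red) and 3 MTST (green) libraries, with the mean and SD of each group in black. CK is the lowest group in every panel, and MTST lies apart from ST in *Ej00079962* and *Ej00056258* but overlaps it in *Ej00038106* and *Ej00084828*.

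Of the 12 genes, 9 carried no GO term at all (75%), and the table pairs no identifier with a gene name, so the genes are called here by their identifiers. The share without a GO term was 50% in the 204 switched-on genes below the window (102 genes) and 50.7% in the 18440 tested genes without a pathway map (9355 genes). With 12 genes this is a description only. For 5306 genes of the table the names of biological processes were not analysed here. Counts of genes by GO list or term can therefore be too low. The 3 genes with GO terms are taken first, since only these can be tied to a role.

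*Ej00056258* was annotated as a transmembrane transporter of iron and manganese at the vacuolar membrane, with terms for the sequestering of iron inside the cell. Transporters of this kind move these metals from the cytosol into the vacuole, where they are stored out of reach of redox reactions. Its level was 1.10, 1.01 and 0.571 TPM in CK, 6.78, 6.17 and 5.79 TPM in ST and 3.95, 3.30 and 4.22 TPM in MTST. The 3 groups did not overlap, with MTST between CK and ST. The means were 0.892 ± 0.282 TPM in CK, 6.25 ± 0.503 in ST and 3.82 ± 0.472 in MTST (SD, n = 3), so that ST was 7.0 times CK and MTST was 0.612 times ST. Its libraries lay close together, the highest at 1.17 times the lowest in ST and 1.28 times in MTST. The values rested on 27 reads in CK, 176 in ST and 120 in MTST, and the counting interval of the pooled MTST/ST ratio ran from 0.482 to 0.778. This exact 95% interval (Clopper-Pearson on the reads pooled over 3 libraries) covers counting error only, here and for the other genes.

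The term for sequestering of iron was looked at more closely after the values of *Ej00056258* had been seen. It was carried by 7 tested genes, and the other 6 differed from *Ej00056258* in level and mostly in direction. Of these 6, 5 were lower in ST than in CK, with CK means of 35.6 to 513 TPM and ST/CK ratios of 0.263 to 0.726, and limma called all 5. The same 5 genes had MTST means at 1.05 to 2.51 times their ST means, and limma called 4 of them higher. The remaining gene was weak like *Ej00056258* and followed the order of its means, with 0.802 TPM in CK, 1.61 in ST and 0.963 in MTST. Its MTST libraries (0.786 to 1.26 TPM) overlapped those of CK (0.600 to 0.945 TPM). Limma called this gene higher in ST than in CK but did not call it between MTST and ST. The switched-on transporter stood beside more strongly expressed genes of the same term that were lower under NaCl. The directions of all 7 genes were the same after median-of-ratios scaling, but fewer were called. In ST 1 was then called higher and 5 lower than CK, and 1 did not pass. From ST to MTST 4 were called higher and 0 lower, and 3 did not pass, *Ej00056258* among them.

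In the wider list of membrane transport, which holds 945 tested genes, 506 rose in ST, 121 fell and 318 did not pass the test (median log2 difference of 0.44). The share that rose, 53.5%, was near the 52.8% of all genes tested. From ST to MTST, 80 of them rose, 335 fell (35.4%, against 29.8% of all genes tested) and 530 did not pass (median -0.26). With median-of-ratios scaling, which sets the median gene near 0, the counts of 943 genes became 249 up and 254 down in ST, and 130 up and 183 down from ST to MTST. Of the 9 genes of this list that were switched on and had no map, 8 were below the window and *Ej00056258* was the 9th.

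*Ej00084828* was annotated with pollen tube guidance, positive chemotaxis and the development of pollen, stamen, embryo sac and flower, and had no term for a molecular function or a cell compartment. Pollen tube guidance is the signalling between pollen tube and ovule that leads the tube to the egg apparatus, a process of flowers, so that the name does not describe a role in leaves. The gene read 0.854, 0.573 and 1.22 TPM in CK, 17.3, 5.55 and 7.80 TPM in ST and 5.56, 6.77 and 7.61 TPM in MTST. ST replicate 1 was 3.12 times ST replicate 2, the widest spread of the 12 genes in ST, while the 3 MTST libraries were at the level of the 2 lower ST libraries. The means were 0.882 ± 0.324, 10.2 ± 6.26 and 6.65 ± 1.03 TPM, with ST at 11.6 times CK and MTST at 0.650 times ST. Its SD in ST was thus larger than the difference between ST and MTST, although its 404 ST and 293 MTST reads gave a counting interval of 0.559 to 0.760. The spread between the ST libraries was 50.1 times that of counting error (chi-square divided by its degrees of freedom), so the replicates and not the reads limit this ratio.

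In the list of seed, flower and development (968 tested genes), 509 genes rose in ST (52.6%, against 52.8% of all genes tested), 78 fell and 381 did not pass. From ST to MTST, 49 rose, 314 fell (32.4%, against 29.8%) and 605 did not pass. Both shares were near those of all genes. After median-of-ratios scaling the counts in ST were 209 up and 220 down, and those from ST to MTST were 108 up and 148 down. In this list 12 genes were switched on without a map, of which 11 were below the window. The narrower term of pollen tube guidance, chosen after the values were seen, held 10 tested genes. They included *Ej00084828*, whose rise in ST was fixed by the rule, and 9 others. Of the 10, 8 rose in ST and 2 did not pass, and from ST to MTST 4 fell and 6 did not pass, a term too small for a share to be set against all genes. With median-of-ratios scaling 5 rose in ST, and from ST to MTST 1 rose and 1 fell.

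*Ej00096026* carried terms for protein homodimerization, the cytosol, the trans-Golgi network of the secretory pathway and cytoplasmic stress granules, which are assemblies of stalled mRNA and protein that form in stressed cells. The names of its biological processes were not analysed here. Its level was 0.755, 1.52 and 0.719 TPM in CK, 6.10, 5.72 and 7.80 TPM in ST and 2.55, 5.13 and 4.95 TPM in MTST. The highest MTST library was below the lowest ST library on the TPM scale, with 14 reads in each, and MTST replicate 1 was the lowest of its group. The means were 0.997 ± 0.452, 6.54 ± 1.11 and 4.21 ± 1.44 TPM, with ST at 6.56 times CK and MTST at 0.644 times ST. With a recovered length of 276 bases it was seen through 49 reads in ST and 35 in MTST, and the counting interval of the ratio, 0.404 to 1.01, reached both 0.5 and 1. At this depth its place in the window was not certain from the reads alone.

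The term of stress granules, chosen after the values were seen, held 44 tested genes, with *Ej00096026* and its fixed rise in ST among them. Of the 44, 28 rose in ST (63.6%, against 52.8% of all genes tested) and 16 did not pass. From ST to MTST 2 rose and 16 fell (36.4%, against 29.8%). With median-of-ratios scaling the split in ST was 10 up and 10 down, so that no direction is given for the term. The 315 tested genes of the trans-Golgi network, also chosen after the values were seen and with *Ej00096026* among them, had 220 up (69.8%) and 13 down in ST. From ST to MTST they had 3 up and 139 down (44.1%). After median-of-ratios scaling these counts were 75 up and 44 down, and 15 up and 49 down. The term was not tested against other genes.

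The 9 genes without a GO term are given in the order of their ST level. *Ej00079962* was the strongest and the longest, with a recovered length of 3906 bases. It read 0.240, 0.241 and 0.0762 TPM in CK, 29.7, 28.2 and 28.1 TPM in ST and 19.5, 16.2 and 17.6 TPM in MTST. The groups were far apart, and the libraries within ST differed by 1.05-fold at most. The means were 0.186 ± 0.0950, 28.7 ± 0.874 and 17.8 ± 1.70 TPM. ST was 154 times CK, the largest ratio of the 12 genes, and MTST was still 95.6 times CK. With 3030 reads in ST and 2088 in MTST it was by far the best measured of the 12, and its MTST/ST ratio of 0.620 had a counting interval of 0.586 to 0.656, well inside the window and well below 1. This interval leaves out the spread between its MTST libraries, which was 6.30 times that of counting error.

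*Ej00090365* read 0.543, 0.364 and 1.03 TPM in CK, 26.0, 9.40 and 19.3 TPM in ST and 11.0, 13.0 and 7.38 TPM in MTST. ST replicate 2 lay within the MTST range, and the other ST libraries lay above it. The means were 0.647 ± 0.347, 18.2 ± 8.36 and 10.5 ± 2.85 TPM, which put ST at 28.2 times CK and MTST at 0.574 times ST. Both groups spread well beyond counting error, by 39.2 times in ST and 9.04 times in MTST, so that the counting interval of 0.499 to 0.652 understates the error of the ratio. Without ST replicate 2 the gene left the window.

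*Ej00003224* was the shortest of the 12, with a recovered length of 249 bases. Its level was 1.25, 0 and 1.19 TPM in CK, 12.6, 4.53 and 6.92 TPM in ST and 4.44, 4.47 and 3.14 TPM in MTST. The value of 0 in CK replicate 2 allows a level of up to 1.26 TPM (3 reads), so this library was not shown to differ from the other controls. MTST was below ST in every library, but by only a small margin at ST replicate 2. The means of 0.817 ± 0.708, 8.02 ± 4.16 and 4.01 ± 0.759 TPM gave ST at 9.82 times CK and a ratio of MTST to ST of 0.5004, the lowest of the 12 and just above the lower bound. Only 54 reads in ST and 30 in MTST stood behind it, and the counting interval of 0.309 to 0.795 held the bound near its middle. Its ST libraries spread by 4.78 times counting error, which this interval leaves out.

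*Ej00038106* had the highest MTST/ST ratio of the 12. It read 0.445, 1.05 and 0.283 TPM in CK, 8.79, 6.75 and 6.90 TPM in ST and 4.86, 7.20 and 5.57 TPM in MTST. MTST replicate 2 was above ST replicates 2 and 3, so the groups overlapped. With means of 0.591 ± 0.402, 7.48 ± 1.14 and 5.88 ± 1.20 TPM, ST was 12.7 times CK and MTST was 0.786 times ST. The spread was close to counting error (1.09 times in ST and 1.71 times in MTST), and the counting interval of 0.612 to 1.01 was above 0.5 but included 1. A difference between MTST and ST was not detectable for this gene at this depth.

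*Ej00013770* read 0.458, 1.27 and 0.218 TPM in CK, 9.49, 6.32 and 6.03 TPM in ST and 2.65, 4.44 and 4.19 TPM in MTST. All MTST libraries were below all ST libraries, and the 3 CK libraries differed by more than counting error, by 4.17 times, the widest of the 12 genes in CK. The means were 0.648 ± 0.550, 7.28 ± 1.92 and 3.76 ± 0.971 TPM. ST was 11.2 times CK, and the MTST/ST ratio of 0.516 was the second lowest, with a counting interval of 0.402 to 0.663. Its ST libraries spread by 4.15 times counting error, which this interval leaves out.

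*Ej00017478* was barely detected in CK, with 0, 0.299 and 0.283 TPM from 0, 2 and 2 reads. CK replicate 1 allows up to 0.445 TPM (3 reads). ST gave 3.20, 7.87 and 9.36 TPM and MTST gave 5.87, 5.76 and 4.03 TPM. It was the only gene of the 12 with its lowest ST value in replicate 1, and all 3 MTST libraries fell inside the ST range. The means of 0.194 ± 0.168, 6.81 ± 3.21 and 5.22 ± 1.03 TPM put ST at 35.1 times CK, with a counting interval as wide as 13.4 to 131 because CK held 4 reads in all. MTST was 0.767 times ST, with a counting interval of 0.585 to 0.989. The spread between its ST libraries was 9.57 times that of counting error, so this interval understates the error of the ratio.

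*Ej00020996* read 0.658, 0.662 and 0.940 TPM in CK, 6.50, 6.05 and 6.35 TPM in ST and 2.96, 5.0 and 4.32 TPM in MTST. ST was uniform, MTST was more spread, and the groups did not overlap. The means were 0.753 ± 0.161, 6.30 ± 0.226 and 4.09 ± 1.04 TPM, with ST at 8.36 times CK and MTST at 0.650 times ST. The counting interval of that ratio was 0.508 to 0.829, which is inside the window and below 1.

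*Ej00019532* read 1.05, 0.948 and 0.598 TPM in CK, 6.43, 4.31 and 5.74 TPM in ST and 5.85, 3.05 and 3.24 TPM in MTST. MTST replicate 1 was at the level of ST, while the other MTST libraries were below every ST library. The means of 0.864 ± 0.236, 5.49 ± 1.08 and 4.05 ± 1.57 TPM gave the smallest ST/CK ratio of the 12, 6.35, and a MTST/ST ratio of 0.737 with a counting interval of 0.574 to 0.942. The spread between its MTST libraries was 6.04 times that of counting error, which this interval leaves out.

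*Ej00074482* had the lowest ST mean of the 12. It read 0.551, 0.416 and 0.394 TPM in CK, 6.23, 5.82 and 3.99 TPM in ST and 3.72, 0.669 and 5.94 TPM in MTST. MTST replicate 2, with 5 reads, was close to the control level and MTST replicate 3, with 46 reads, was at the ST level, an 8.89-fold range that was the widest of the 12 genes in ST or MTST. The mean of 3.44 ± 2.65 TPM in MTST was near replicate 1 but far from replicates 2 and 3. Against 0.453 ± 0.0852 TPM in CK and 5.35 ± 1.19 TPM in ST it gave ratios of 11.8 for ST to CK and 0.644 for MTST to ST. The spread in MTST was 15.3 times that of counting error, so that the counting interval of 0.482 to 0.879 understates the error of the ratio.

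**Figure D3:**
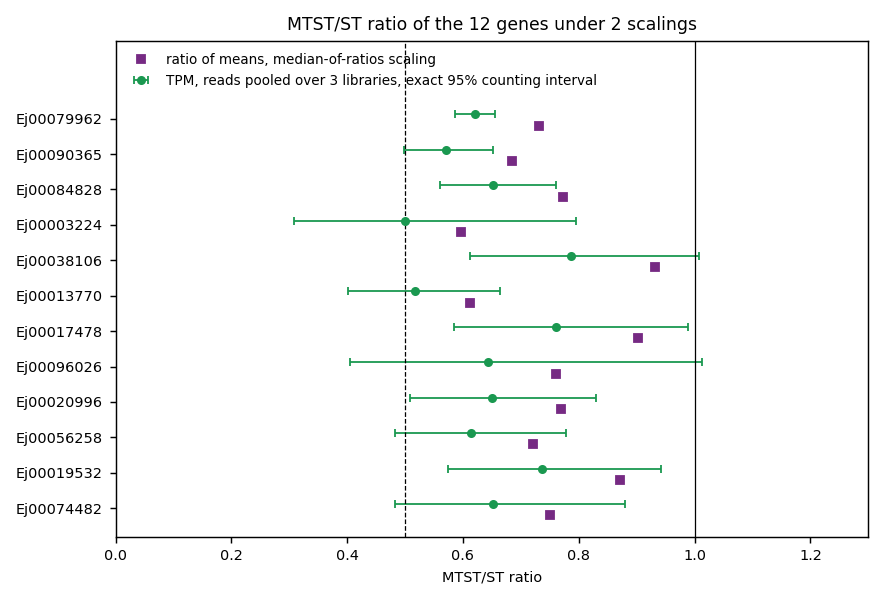
MTST/ST ratio (horizontal axis) of each of the 12 genes (vertical axis) from reads pooled over the 3 libraries on the TPM scale, with the exact 95% counting interval (green), and as the ratio of means after median-of-ratios scaling (purple squares). The dashed line is the lower bound of 0.5 and the solid line is equality at 1, and every purple square lies to the right of its green point but left of 1.

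Taking reads alone, the counting interval of the MTST/ST ratio lay above 0.5 in 6 of the 12 genes and included 0.5 in the other 6. It lay below 1 in 10 genes and included 1 in 2, *Ej00038106* and *Ej00096026*. The replicates added to this error in an uneven way. The spread between ST libraries was more than 3 times that of counting error in 5 genes (median of the 12, 1.87), and that between MTST libraries in 4 genes (median 2.31). *Ej00038106* and *Ej00096026* were not among these genes, so the tally does not rank the 12 genes by how surely they lay below 1. ST replicate 1 was the highest ST library in 10 of the 12 genes and ST replicate 2 the lowest in 7. The share over all genes tested was not analysed here, and the median-of-ratios factors of ST replicates 1, 2 and 3 were 1.21, 1.16 and 1.17. The excess of ST replicate 1 was large in some genes, such as *Ej00084828* (17.3 against 5.55 and 7.80 TPM). It was small in others, such as *Ej00079962* (29.7 against 28.2 and 28.1 TPM). Without ST replicate 1 the rule found 16 genes, of which 11 were among the 12. In MTST no library took such a place, since replicates 1, 2 and 3 were the highest in 3, 6 and 3 genes.

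Most of the 12 genes were weak. Their median ST mean was 7.05 TPM, 9 of them were below 10 TPM, and the median MTST mean was 4.15 TPM, against medians of 14.8 TPM in ST and 12.1 TPM in MTST over all genes tested. *Ej00079962* was above both of these medians and *Ej00090365* above that in ST. The 204 switched-on genes below the window had a median of 9.53 TPM in ST, with a highest value of 692 TPM, and of 1.68 TPM in MTST. In CK the medians were 0.700 TPM for the 12 genes and 0.400 TPM for the 204. The recovered length of the 12 genes had a median of 930 bases, against 1349 bases for the 204 genes and 1581 bases for all genes tested. In reads, the 12 genes were seen through 4 to 38 reads in CK (median 19), 49 to 3030 in ST (median 155) and 30 to 2088 in MTST (median 118.5).

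Most lists of GO terms had switched-on genes without a map but none among the 12. Of 23 lists, membrane transport and seed, flower and development each held 1 of the 12 genes. *Ej00096026* was in none, but the names of its biological processes were not analysed here, so it could not enter a list through them. Transcription factors held 20 switched-on genes, all of them below the window. The same was true of all 13 genes for glycosyl hydrolases and the cell wall, 9 for defence, 7 for protein kinases, 7 for redox enzymes and 6 for hormones other than abscisic acid. It was also true of all 4 genes for water, salt and abscisic acid, the list closest to the treatment. By compartment, 26 genes of the plasma membrane, 15 of the nucleus and 11 of the chloroplast or plastid were switched on, and all were below the window. With 12 genes, of which 9 had no GO term, an absence from these lists is not a difference between them and the others.

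Several of the 12 genes lay close to the bounds that chose them. At the ST minimum of 5 TPM, *Ej00074482* (5.35 TPM) and *Ej00019532* (5.49 TPM) were the nearest inside, and genes at 4.90 and 4.92 TPM the nearest outside. At the CK maximum of 1 TPM, *Ej00096026* (0.997 TPM) and *Ej00056258* (0.892 TPM) were just inside, and genes at 1.04 and 1.09 TPM just outside. At the lower bound of the ratio, *Ej00003224* (0.5004) and *Ej00013770* (0.516) were inside, and genes at 0.471 and 0.454 outside. No gene lay near the upper bound, since the highest ratios inside were 0.786 and 0.767 and a single gene lay outside, at 2.55.

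**Figure D4:**
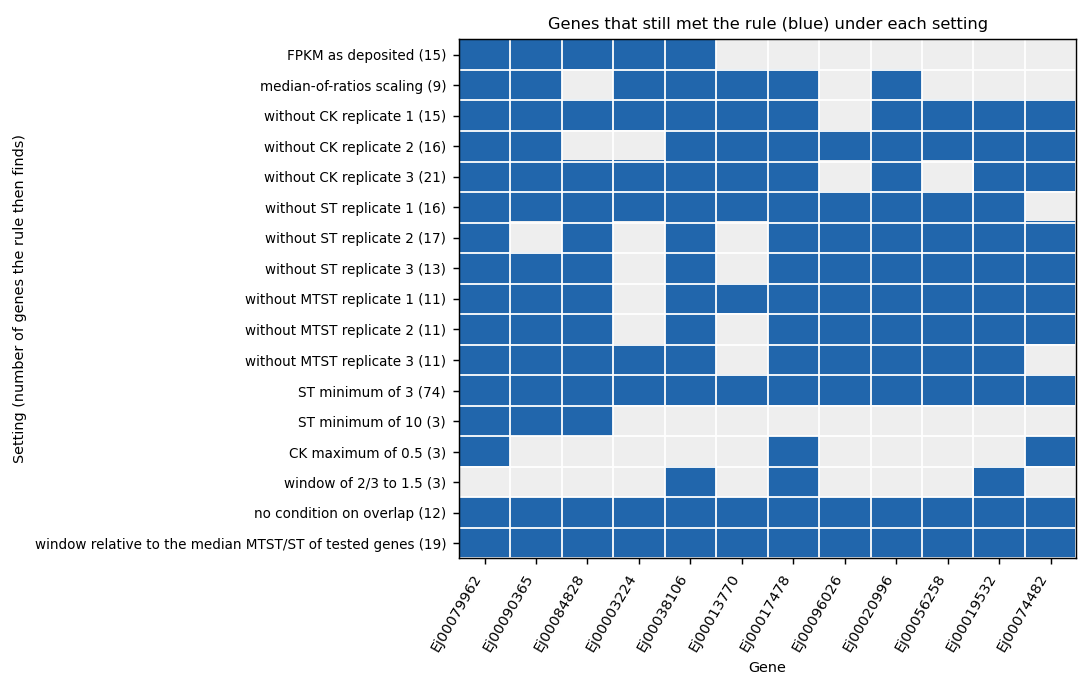
Genes that still met the rule (blue) or did not (grey) under each other setting (vertical axis, with the number of genes the rule then found in brackets), for the 12 genes (horizontal axis). *Ej00079962* fails only the narrower ratio window, while *Ej00003224* and *Ej00013770* fail many of the settings that leave out a library.

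Membership was accordingly uneven. When each of the 9 libraries was left out in turn, *Ej00079962*, *Ej00038106*, *Ej00017478*, *Ej00020996* and *Ej00019532* met the rule in 9 of 9 cases. *Ej00090365*, *Ej00084828* and *Ej00056258* met it in 8, *Ej00096026* and *Ej00074482* in 7, *Ej00013770* in 5 and *Ej00003224* in 4. The number of genes found ranged from 11 to 21, and the 21 without CK replicate 3 included 10 of the 12. Leaving out a library kept 9 to 11 of the 12 genes, and a change of scaling kept fewer. The bounds of 1 and 5 were left unchanged on the other scales, where they stand for other levels than in TPM. On the deposited FPKM the rule found 15 genes, of which 5 were among the 12. These 5 were the genes with the highest ST means of the 12 in TPM. After median-of-ratios scaling the rule found 9 genes, of which 7 were among the 12. On that last scale the MTST/ST ratios of the 12 genes were 0.597 to 0.932 with a median of 0.755, all still below 1, while the median log2 difference of all genes tested moved from -0.22 to close to 0.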

How the data were processed

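Leaf RNA of 9 loquat samples was analysed, 3 each of CK, ST and MTST, assigned from their labels. Per the labels and the methods, adapters and poor bases were removed with Trim-Galore and Trimmomatic, HISAT2 placed the reads on the JFZ genome, Rsubread counted them, and FPKM per gene was calculated and deposited by the authors. For the software versions and the handling of reads shared between similar genes, nothing is given in the sources used here. The deposited table also holds the authors' averages and their own comparisons (log2 fold changes, p-values and calls), which were not used. No coordinates or sequences were used here.

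FPKM was rescaled to TPM. Low FPKM values were whole multiples of 1 read, so a length (60 to 20000 bases, the smallest that fitted) and whole reads were recovered for 31458 of 31458 genes above 0, within 1e-05 reads and with 99.979% to 99.984% of the library totals. A true length could be a multiple of the recovered one, with the reads multiplied likewise. Limma 3.58.1 (R 4.3.3, empirical Bayes with trend) was fitted on log2(TPM + 1) in 1 fit of all 9 libraries with group as the only term, over genes of at least 1 TPM in at least 3 libraries, after the script was tested on simulated data. Fold changes on this scale understate those of weak genes, and p-values measure only the spread between these samples. Python 3.11.15, numpy 2.4.6, pandas 2.3.3, scipy 1.17.1 and matplotlib 3.10.9 were used.

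The members, the GO lists and the tests were chosen with earlier results of these data known. The rule for named genes took the 10 members with the highest ST mean, those with the lowest and highest MTST/ST ratio and those nearest each bound, which covered all 12. Narrower GO terms, limma-voom on the recovered reads and a ratio window relative to the median gene were added after the data were seen. Other settings were FPKM, median-of-ratios scaling, a pseudocount of 0.1, no filter, no trend, a replicate block, other bounds and each library left out.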

Additional observations from a re-analysis of the deposited data

How the results depend on the processing

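The 12 genes depended on the bounds of the rule. It found 74 genes with an ST minimum of 3 TPM, 3 with an ST minimum of 10 TPM, 3 with a CK maximum of 0.5 TPM and 3 with a ratio window of 0.67 to 1.5. A window relative to the median MTST/ST ratio of tested genes, added after the data were seen, found 19, all 12 included. Leaving out a library gave 11 to 21 genes, with 21 without CK replicate 3. The number of the 12 genes called lower in MTST than ST by limma (4) was 1 with median-of-ratios scaling, 0 with a pseudocount of 0.1 (3 at an unadjusted p under 0.05), 2 without the filter and 2 with limma-voom on recovered reads. Over all genes tested, 6709 of 23641 were called lower with that pseudocount, 7075 of 31458 without the filter and 5607 of 23641 with limma-voom. Leaving out a library gave 2 to 5, with 2 (in place of 4) without ST replicate 1, ST replicate 3, MTST replicate 2 or MTST replicate 3. Over all genes tested, these 4 settings called 5623, 4876, 5069 and 5583 genes lower, and leaving out any library called 4876 to 7354. The cause of these changes was not tested. In every setting 12 genes were called higher in ST than CK, beside 5323 to 13101 of all genes tested. For MTST against CK, 11 of the 12 were called higher without CK replicate 1, 2 or 3, without MTST replicate 1 or 3, and with limma-voom. In those settings 5399 to 7056 of all genes tested were called higher. All 12 were called in the other settings. The median MTST/ST ratio of the 12 genes (0.644) was 0.680 on FPKM, 0.755 with median-of-ratios scaling and 0.602 to 0.681 without a library. Over all genes tested, 12489 were called higher and 2504 lower in ST than CK, but 5323 and 5545 with median-of-ratios scaling. From ST to MTST 1867 were called higher and 7045 lower, but 3563 and 3203 with that scaling.

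With replicate number as a replicate block, 3 of the 12 genes were called lower in MTST than ST (6540 of all genes tested). In the same fit 12 were called higher in ST than CK (12233 of all genes tested). Deviations of same-numbered libraries from their group means correlated at -0.15 to 0.083, which gave no sign of a pairing by number. With 3 libraries per group a weak shared effect could be missed, and the labels do not say whether the numbers pair the samples. Depth limits the place in the window of 6 of the 12 genes, whose counting intervals included the bound of 0.5.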

Other observations

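A pathway map was given for 2 genes that met the rest of the rule, which fixes their likeness to the 12 genes. The gene mapped to cutin, suberine and wax biosynthesis had means of 0.372 ± 0.185 TPM in CK, 32.3 ± 2.07 in ST and 20.2 ± 0.589 in MTST (SD, n = 3). Cutin, suberin and waxes are the lipids that seal the leaf surface and other barriers against water loss. Its MTST/ST ratio of 0.626 was next to that of *Ej00079962* (0.620), the strongest of the 12 genes. The gene mapped to plant MAPK signalling had means of 0.988 ± 0.241, 5.45 ± 1.13 and 2.92 ± 0.496 TPM and a ratio of 0.537. These genes were looked at after their values had been seen.

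The switched-on gene without a map that lay above the window had no GO term and a recovered length of 1932 bases. It read 12.2, 14.5 and 7.08 TPM in ST and 33.4, 19.7 and 32.8 TPM in MTST, after a mean of 0.604 ± 0.182 TPM in CK. Every MTST library was above every ST library, with a ratio of means of 2.55.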
